A study of Homo sapiens with 12 samples.

Results

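The departure from additivity asks whether all-trans retinoic acid (ATRA) and palbociclib, given together, changed a transcript by the sum of what each did alone. It was described in HL-60, a human line established from acute myeloid leukaemia, labelled as wild type and myeloid and grown in RPMI with fetal calf serum. The libraries came from 4 groups of 3, which were untreated, exposed to ATRA at 100 nM, exposed to palbociclib at 500 nM or exposed to both drugs at these doses, with a treatment time of 3 h. For each gene the departure is the difference between the combination and ATRA minus the difference between palbociclib and untreated cells, taken between group means of log2(RPKM + 0.1), where RPKM is the read number scaled to gene length and to library size. A gene was described if its RPKM reached 10 or more in each of the 12 libraries, a condition met by 4143 of 58233 genes in the deposited table. A value of 0 means that the effects of the drugs multiplied, a positive value means that the combination lay above that expectation and a negative value that it lay below. Additivity was also computed in RPKM itself, where the expectation is the ATRA mean plus the palbociclib mean minus the untreated mean. No solvent control is named for the untreated cells, and all values come from a single cell line.

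Palbociclib inhibits CDK4 and CDK6, the kinases that phosphorylate the retinoblastoma protein RB in G1 phase. RB in its unphosphorylated form holds back E2F transcription factors, which drive genes for DNA replication, nucleotide supply and S phase entry. ATRA binds retinoic acid receptors, induces genes of granulocytic differentiation in myeloid cells and lowers MYC and proliferation genes with time. A gene that both drugs lower can therefore be reached by both, and the departure measures how far the effect of one drug changes when the other is present.

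The libraries were of similar size by what the table allows, with RPKM sums between 358455 and 390247, and read depth per library is not in the table. DHRS3, a retinoid-inducible retinal reductase, was listed at 0 to 1 RPKM in the 6 libraries without ATRA and at 40 to 50 in the 6 with it, which separated the libraries as labelled. Of 9 myeloid markers, 8 were above 0 in every library, while 6 of 7 lymphoid and 8 of 8 erythroid and megakaryocytic markers were at 0 throughout. Replicates of a group gave identical rounded values for 9.5% to 23.5% of the genes described, and no library was a copy of another. The study's methods give a general statement of independent experiments, but the labels do not say that these replicates are separate cultures, so p-values measure the spread between these libraries, which may be technical.

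Departures were small. On the log2 scale they lay between -0.16 and 0.19 for the central 90% of the genes, against a median standard error (SE) of 0.13, and 5 genes exceeded 0.5 in size, namely the transcript AC034268.1 (-0.66), the mitochondrial tRNA gene MT-TT (-0.60), RFC3 (0.50), MCM4 (0.51) and CDC6 (0.51). In limma fits over 7820 genes without a replicate block, none passed a Benjamini-Hochberg adjusted p of 0.05 above additivity (0.0% called) or below it (0.0%), on either scale. With a block for replicate number, which the labels do not define as a batch, 26 above and 1 below passed in RPKM and 0 in log2. In simulated data fitted without the block, departures of 0.5 log2 units were called for only 28 of 200 changed genes in log2. In RPKM 42 of 200 were called, so an absence of calls does not show additivity. Without adjustment and without the block, p was under 0.05 for 79 genes above additivity (1.91% of the 4143) beside 1.97% of all genes tested, and for 32 below it (0.772%) beside 1.05%. These 111 genes were 2.68% of the total in a fit without a replicate block, and the shares in each direction were close to or under those of all genes tested. By sign, 1932 genes lay above and 2180 below, beside 47.7% and 49.0% of the genes tested. On the RPKM scale 109 genes above (2.63%) stood beside 2.89% of those tested and 21 below (0.507%) beside 0.678%, and 1817 and 2030 lay above and below by sign, beside 44.4% and 43.4%. What differed between directions was the kind of gene. Of the 79 genes above additivity, 32 belonged to 9 overlapping lists of replication, repair and cell cycle genes, lists that hold 3.79% of the genes described, and 0 of the 32 genes below belonged to them. Lists are described by counts and medians only.

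Genes that load and open replication origins stood far above additivity, with a list median next to that of the S phase list (0.35). All 12 measured members of the licensing list lay above it, with a median of 0.31 against -0.01 over all 4143 genes, and 8 of them had an unadjusted p under 0.05. MCM4, a subunit of the MCM2-7 helicase that unwinds DNA at replication forks, measured 79, 80 and 82 RPKM in untreated cells, 52, 56 and 54 with ATRA, 40, 41 and 36 with palbociclib and 38, 41 and 33 with both. Each drug alone left its 3 libraries below all untreated ones, and the combination overlapped palbociclib alone. The combination mean of 37.3 RPKM compared with 26.1 expected if effects multiplied and 12.7 if they summed in RPKM, a log2 departure of 0.51 ± 0.11 (SE), with an unadjusted p of 0.000932 in limma and an adjusted p of 1. In RPKM its departure was 24.7 ± 3.36 (SE), with an adjusted p of 0.0687 in limma, which CDC25A shared as the lowest of all genes tested. MCM2, another subunit, read 76, 79 and 78 untreated, 67, 65 and 69 with ATRA, 51, 50 and 46 with palbociclib and 54, 53 and 48 with both, departing by 0.29 ± 0.08 (SE). MCM5 and MCM3 departed by 0.36 and 0.33, both with an unadjusted p under 0.05, and MCM7 by 0.22. CDC6, which loads the helicase onto origins, read 27, 29 and 28 untreated, 25, 30 and 25 with ATRA, 14, 16 and 13 with palbociclib and 19, 24 and 16 with both. Its palbociclib libraries lay below the untreated ones while ATRA overlapped them, and the combination overlapped palbociclib at its lowest library only, for a departure of 0.51 ± 0.19 (SE). ORC1, the largest subunit of the origin recognition complex, departed by 0.40 and GMNN, the licensing inhibitor geminin, by 0.42.

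**Figure D1:**
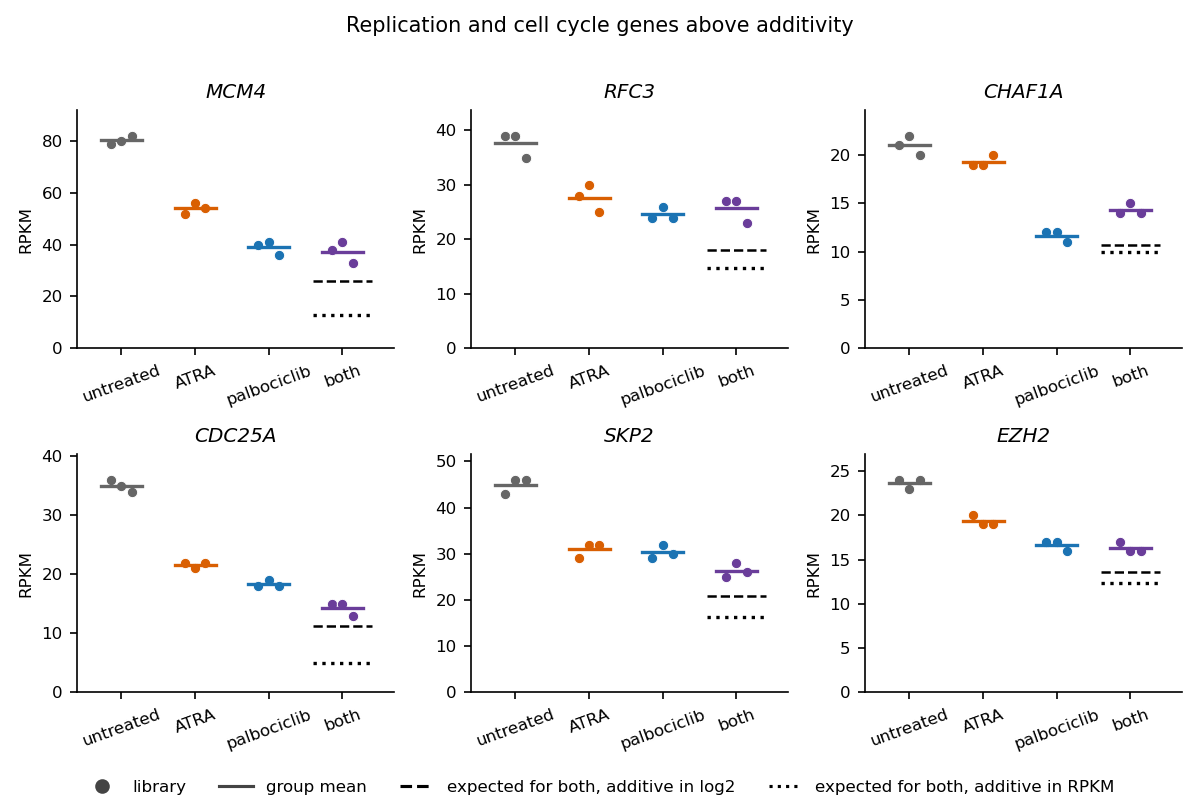
RPKM (y axis, from 0) in each library by group (x axis) for 6 genes above additivity. Points are libraries, coloured bars are group means over 3 libraries, and dashed and dotted bars show where the combination was expected under additivity in log2 and in RPKM. In all 6 panels every library of the combination lies above both expectations, as for MCM4, where 33 to 41 RPKM compare with 26.1 and 12.7.

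At the replication fork, 19 of 25 genes lay above additivity with a median of 0.13, and 6 had an unadjusted p under 0.05. RFC3, a subunit of the clamp loader, measured 39, 39 and 35 RPKM untreated, 28, 30 and 25 with ATRA, 24, 26 and 24 with palbociclib and 27, 27 and 23 with both. The 3 treated groups overlapped each other and lay below untreated cells, so the departure of 0.50 ± 0.12 (SE, unadjusted p of 0.00193 in limma) came with effects of the second drug near 0. RFC4 and RFC5 departed by 0.36 and 0.33 and RFC2 by 0.29. PCNA, the sliding clamp itself, had the largest departure of these in RPKM, at 64.0 ± 25.3 (SE). It read 261, 276 and 256 untreated, 252, 225 and 205 with ATRA, 168, 143 and 114 with palbociclib and 199, 169 and 138 with both. In each replicate number the combination stood above palbociclib, but the libraries of these groups overlapped, and its log2 departure of 0.48 ± 0.22 (SE) had an unadjusted p of 0.0504. PRIM1, a primase subunit, and FEN1, the flap endonuclease of lagging strand synthesis, departed by 0.40 and 0.35. Polymerase delta and RPA subunits did not share this, since POLD1, RPA2 and RPA3 had values of 0.03, -0.03 and -0.03.

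Chromatin assembly genes behind the fork followed, with 11 of 13 above and a median of 0.17. CHAF1A, the large subunit of the histone chaperone CAF-1, had the highest moderated t statistic of all genes described. It read 21, 22 and 20 RPKM untreated, 19, 19 and 20 with ATRA, 12, 12 and 11 with palbociclib and 14, 15 and 14 with both. All libraries of the combination lay above all those of palbociclib alone, and ATRA alone lay at or just below untreated cells. The departure was 0.41 ± 0.08 (SE, 95% confidence interval 0.23 to 0.60), with an unadjusted p of 0.000533 and an adjusted p of 1 in limma. UHRF1, which guides maintenance DNA methylation, departed by 0.35, and CDCA7, a cofactor of the remodeller HELLS, by 0.30 on the log2 scale. In RPKM CDCA7 departed by 14 ± 2.28 (SE), with an adjusted p of 0.0895 in limma, the third and last gene described that was under 0.1.

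Nucleotide synthesis and DNA repair genes also lay mostly above additivity. Of 24 nucleotide genes 17 lay above (median 0.11), and 4 of them, RRM1, RRM2, PRPS2 and DCK, had an unadjusted p under 0.05. RRM2, the regulated subunit of ribonucleotide reductase, read 65, 75 and 67 untreated, 53, 64 and 56 with ATRA, 41, 45 and 35 with palbociclib and 42, 48 and 39 with both, a departure of 0.35 ± 0.16 (SE). Purine enzymes were mixed, with GART at -0.02 and PFAS at -0.09 but the GMP synthetase GMPS at 0.24 ± 0.12 (SE). Among 16 repair and checkpoint genes 13 lay above (median 0.09). They were led by USP1, the deubiquitinase of the Fanconi pathway and of PCNA, which read 52, 50 and 47 untreated, 36, 39 and 36 with ATRA, 29, 31 and 26 with palbociclib and 30, 30 and 26 with both. Its departure was 0.42 ± 0.11 (SE), while the end-joining genes XRCC5 and XRCC6 had 0.06 and 0.05.

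In the list of E2F, RB and G1 kinase genes 12 of 14 lay above (median 0.16). CDC25A, a phosphatase that activates CDK2, read 36, 35 and 34 RPKM untreated, 22, 21 and 22 with ATRA, 18, 19 and 18 with palbociclib and 15, 15 and 13 with both. No groups overlapped, and unlike for MCM4 every library of the combination was below all those of either drug alone. The combination mean of 14.3 still stayed above the 11.3 expected in log2 and the 5.0 expected in RPKM. SKP2, the F-box protein that targets p27 for degradation, read 43, 46 and 46, then 29, 32 and 32, then 29, 32 and 30, and 25, 28 and 26 with both, in the same order of groups. Its departures were 0.33 ± 0.09 (SE) in log2 and 10.0 ± 2.07 (SE) in RPKM. CDK2 departed by 0.32, whereas the inhibitor CDKN1B and the D-type cyclin CCND3 both had -0.04. EZH2, the catalytic subunit of the Polycomb complex PRC2, read 24, 23 and 24 untreated, 20, 19 and 19 with ATRA, 17, 17 and 16 with palbociclib and 17, 16 and 16 with both. It departed by 0.26 ± 0.07 (SE), and 5 of 6 PRC2 genes lay above (median 0.16).

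Mitotic genes were much closer to additivity. The G2M list had 33 of 45 above with a median of 0.06, which ranged from -0.00240 to 0.110 with a library left out, and only TMPO, a nuclear lamina protein, had an unadjusted p under 0.05 (departure 0.33). CDK1, the mitotic kinase, departed by 0.23 ± 0.12 (SE), with 37 to 43 RPKM under palbociclib and 40 to 47 with both, groups that overlapped. CCNB2, AURKB and MKI67 had 0.07, 0.09 and 0.08. The S phase list used for scoring cycling cells, by contrast, had 27 of 28 above, a median of 0.35 and 17 genes with an unadjusted p under 0.05. Between libraries of the same number its mean departed by 0.33, 0.33 and 0.35, and that of the G2M list by 0.15, 0.03 and 0.01. The single drugs also moved the G2M list less. Its median palbociclib effect was -0.14 log2 units without ATRA and -0.07 with it, against -0.70 and -0.37 for the S phase list. The median ATRA effects without palbociclib were 0.02 and -0.25. The departures of these lists are thus not set against effects of equal size, and the difference between the lists was not tested.

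**Figure D2:**
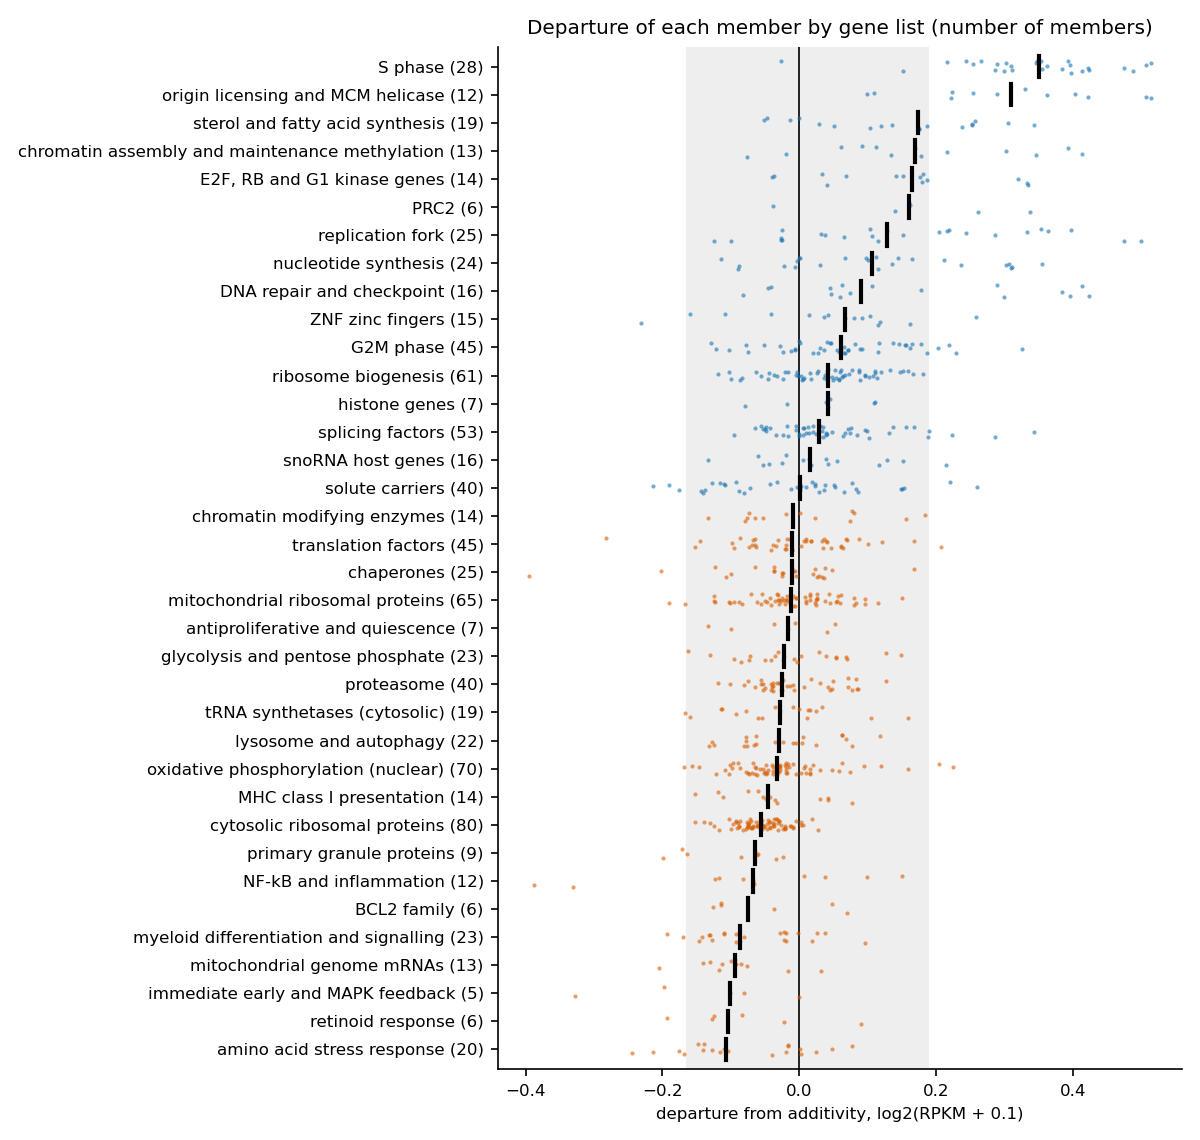
Departure on the log2 scale (x axis) of every gene described in the lists with at least 5 such genes (y axis, number in brackets). Points are genes, black ticks are list medians and the grey band holds the central 90% of all 4143 genes. The S phase and licensing lists, with medians of 0.35 and 0.31, have most of their genes right of the band, and no list has its median left of it.

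Many of these genes carry E2F-like letters close to their start. In the 250 bases upstream of RefSeq transcript starts, the letters TTGGCGC, their variant TTCCCGC or the further variant TTCGCGC stood on either strand in 9.32% of 35116 windows and in at least 1 window of 11.2% of 27279 genes. Among S phase genes with a window the number was 15 of 23 (65.2%), among licensing genes 7 of 10 (70.0%), among replication fork genes 9 of 23 (39.1%), and among the 79 genes above additivity 32 of 64 (50.0%). For G2M genes it was 5 of 37 (13.5%), and for the amino acid stress genes, which leaned below additivity, 6 of 18 (33.3%). Of all 4143 genes described only 2900 (70.0%) had a window, and 600 of these (20.7%) held the letters. Genes without a window limit that share as a comparison. It is above 11.2%, so part of the distance of the lists from 11.2% is shared by the genes described at large. Of the 32 genes below additivity only 23 (71.9%) had a window, under the 80% set as the least for a comparison. The letters stood in 4 of these 23 (17.4%), a share with the same limit as that of all genes described. A match is a run of letters and does not show binding. The last 120 bases before the RefSeq start are shown for 4 of the 10 genes furthest above additivity, those with a match, with the matching letters in capitals (GRCh38.p14). In CDC25A the capitals are a palindrome read as a match on each strand.
CHAF1A, chr19:4402520-4402639, plus strand: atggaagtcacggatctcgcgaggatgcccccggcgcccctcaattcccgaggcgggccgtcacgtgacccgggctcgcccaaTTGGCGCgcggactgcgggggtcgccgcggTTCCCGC
RFC3, chr13:33818029-33818148, plus strand: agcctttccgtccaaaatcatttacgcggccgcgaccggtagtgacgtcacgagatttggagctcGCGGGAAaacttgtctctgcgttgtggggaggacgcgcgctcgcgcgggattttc
CDC25A, chr3:48188418-48188537, minus strand: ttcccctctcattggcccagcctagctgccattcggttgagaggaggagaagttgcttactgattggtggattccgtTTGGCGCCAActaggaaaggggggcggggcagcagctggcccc
UBR7, chr14:93207136-93207255, plus strand: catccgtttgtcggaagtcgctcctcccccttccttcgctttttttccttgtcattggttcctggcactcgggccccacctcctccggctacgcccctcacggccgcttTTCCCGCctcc
Of the other 6 genes, SKP2, MCM2, USP1 and EZH2 had no match in their windows, and MCM4 and PBK are named only. The 4 genes with a match departed by 0.27 to 0.50 and the 4 with windows but no match by 0.26 to 0.42.

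Genes above additivity outside the cell cycle lists numbered 47. PBK, a mitotic kinase, was among the 10 furthest above, with 26, 27 and 24 RPKM untreated, 21, 20 and 18 with ATRA, 18, 19 and 16 with palbociclib and 20, 18 and 18 with both, and a departure of 0.46 ± 0.12 (SE). Others, named after their values were seen, included SMC3, a cohesin subunit, at 0.32, DEK, a chromatin protein, at 0.35, TFAM, which packages mitochondrial DNA, at 0.23, and the kinetochore proteins ZWINT and SKA3 at 0.21 and 0.24. UBE2T, a ubiquitin-conjugating enzyme of the Fanconi pathway, differed in form, with means of 62.7 RPKM untreated, 81.3 with ATRA, 45.0 with palbociclib and 70.0 with both.

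Of the 79 above additivity, 77 had both single-drug means below untreated cells, beside 35.4% of all genes described. In 42 of the 77 the combination was not below the lower single-drug mean, beside 620 of 1466 such genes among all described. Both counts are favoured by the choice by departure, which shares the untreated mean with both single-drug effects. The median palbociclib effect of the 79 was -0.47 log2 units without ATRA and -0.16 with it, a difference in the direction that their choice by departure fixes. For the 28 S phase genes the palbociclib effect was -0.70 without and -0.37 with ATRA, and the ATRA effect was -0.25 without and 0.07 with palbociclib. Averaged over these genes, the libraries stood between -0.35 and -0.27 log2 units from the untreated mean with ATRA, between -0.83 and -0.64 with palbociclib and between -0.80 and -0.58 with both, where additivity would have put the last at -1.002. Combination and palbociclib libraries overlapped, and all of the former were above the expected value. Because both single-drug effects are measured from the same 3 untreated libraries, a shift of those libraries enters the departure as well. Where the 3 treated groups share a level, as in RFC3, such a shift and a departure cannot be told apart. Leaving out untreated replicate 1, 2 or 3 left 55, 62 and 86 genes above additivity at an unadjusted p under 0.05.

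**Figure D3:**
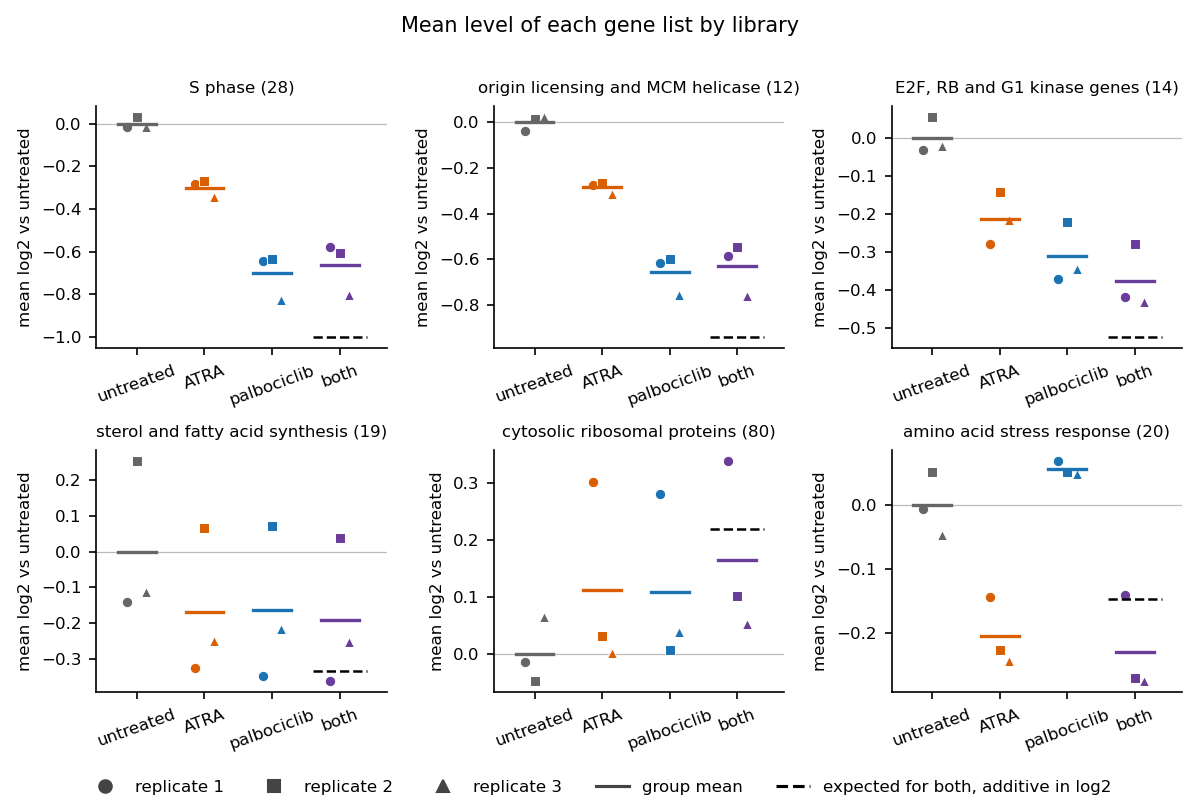
Mean over a list of log2(RPKM + 0.1) minus the untreated mean (y axis) in each library by group (x axis) for 6 lists, with the number of genes in brackets. Symbols mark replicate numbers, coloured bars group means and the dashed bar the value expected for the combination under additivity in log2. The S phase and licensing lists lie above that bar in all 3 combination libraries, whereas sterol and ribosomal protein lists spread across replicates by more than their distance from it.

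Sterol and fatty acid genes lay about as far from additivity as chromatin assembly genes, but with a wider spread between replicates. Of 19 genes 15 lay above additivity with a median of 0.17, and 0 had an unadjusted p under 0.05. HMGCS1, which makes HMG-CoA for cholesterol synthesis, read 53, 84 and 51 RPKM untreated, 41, 69 and 43 with ATRA, 41, 70 and 46 with palbociclib and 40, 68 and 44 with both. Replicate 2 was the highest library of every group. The departure of HMGCS1 was 0.25 ± 0.41 (SE), and the SD of the list mean between replicates was 0.21 log2 units against 0.09 for the S phase list. Without untreated replicate 2 the median of the list was 0.01. That setting leaves the high replicate 2 in the treated groups only, and between libraries of the same replicate number the list mean departed by 0.17, 0.15 and 0.10.

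Genes below additivity were scattered, with at most 1 of the 32 in any of the lists. Of the 32, 27 had both single-drug means above untreated cells, beside 38.02% of all genes described. In 19 of the 27 the combination did not exceed the higher single-drug mean, beside 556 of 1575 such genes among all described. Choice by departure favours both counts, since the untreated mean enters the departure and both single-drug effects. S1PR4, a sphingosine 1-phosphate receptor of leukocytes, had the lowest t statistic, with 15, 15 and 16 RPKM untreated, 20, 18 and 18 with ATRA, 20, 19 and 20 with palbociclib and 19, 19 and 20 with both. All treated libraries lay above all untreated ones and overlapped each other, which gave a departure of -0.31 ± 0.08 (SE), with an unadjusted p of 0.00376 and an adjusted p of 1 in limma. MAFG, a small MAF transcription factor that pairs with NRF2 and NFE2, read 24, 25 and 22 untreated, 31, 32 and 31 with ATRA, 24, 26 and 24 with palbociclib and 26, 27 and 27 with both. ATRA alone stood apart from the other 3 groups, and the ATRA effect was 0.41 log2 units without palbociclib and 0.11 with it (departure -0.29 ± 0.08, SE).

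LMO2, a haematopoietic transcription cofactor, showed the reverse dependence, with 36, 39 and 36 RPKM untreated, 40, 37 and 38 with ATRA, 50, 47 and 46 with palbociclib and 43, 39 and 41 with both. Palbociclib alone lay above every other library, and its effect was 0.36 log2 units without ATRA and 0.10 with it. PCK2, the mitochondrial PEP carboxykinase, behaved likewise at 11, 12 and 11 untreated, 13, 12 and 12 with ATRA, 16, 15 and 17 with palbociclib and 15, 13 and 14 with both, where palbociclib and the combination met at 15 (departure -0.31 ± 0.10, SE). MARS, the methionyl-tRNA synthetase, measured 48 to 49 with palbociclib and 43 to 46 with both (departure -0.16 ± 0.06, SE). TNFRSF1A, the main TNF receptor, read 19, 24 and 20 untreated, 23, 26 and 23 with ATRA, 26, 29 and 25 with palbociclib and 23, 26 and 22 with both, and its groups overlapped (departure -0.37 ± 0.14, SE). TNF itself, an inflammatory cytokine, departed by -0.39 ± 0.16 (SE), with 52, 53 and 62 untreated, 94, 86 and 98 with ATRA, 61, 70 and 81 with palbociclib and 87, 83 and 99 with both. RNF41, PLEKHO2 and SHISA5, at -0.29, -0.23 and -0.29, and the processed pseudogene ENSAP2, at -0.31, complete the 10 furthest below. Reads of a pseudogene can belong to its parent gene, so the last value is uncertain.

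**Figure D4:**
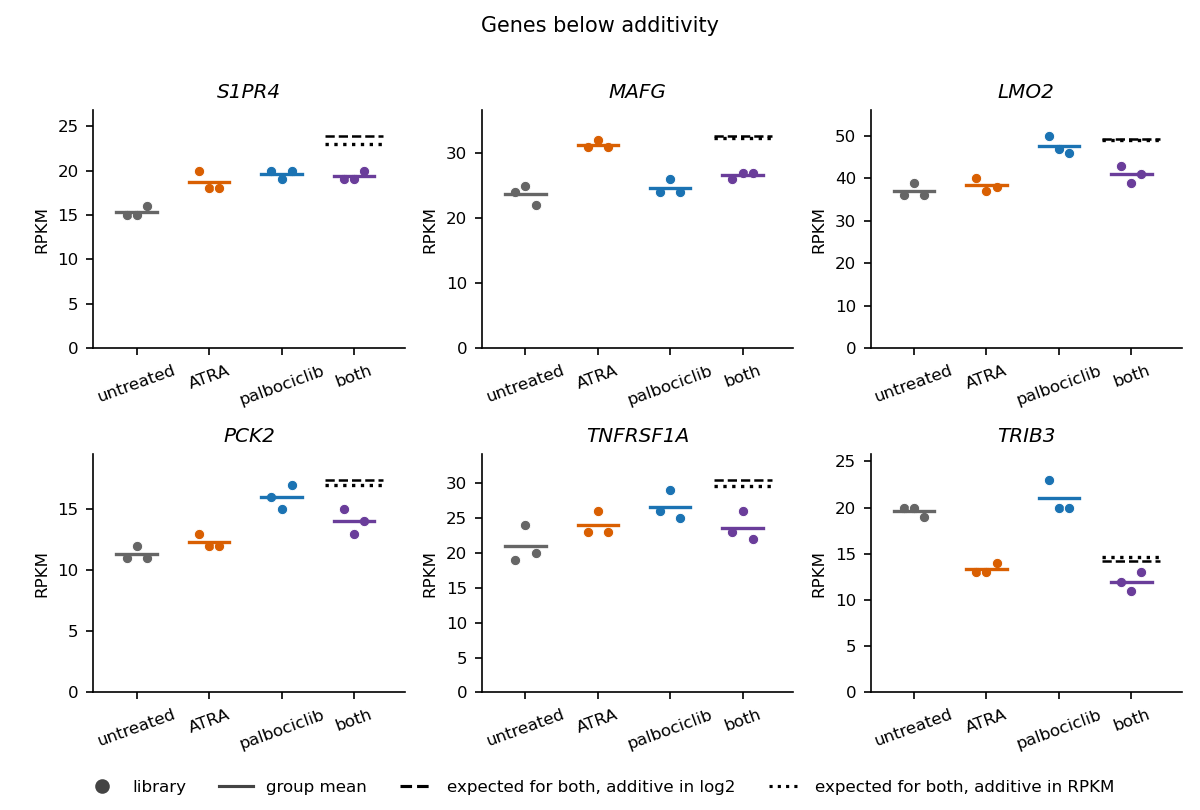
RPKM (y axis, from 0) in each library by group (x axis) for 6 genes below additivity, drawn as points with group means as coloured bars. Dashed and dotted bars show the combination expected under additivity in log2 and in RPKM. The combination libraries lie below both bars in every panel, for example 19 to 20 RPKM for S1PR4 against 23.9 and 23.0.

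Among lists with medians below 0 the amino acid stress response was the lowest, with 15 of 20 genes below and a median of -0.11. TRIB3, a pseudokinase induced by ATF4, was the only one with an unadjusted p under 0.05, at 20, 20 and 19 RPKM untreated, 13, 13 and 14 with ATRA, 23, 20 and 20 with palbociclib and 12, 11 and 13 with both. Palbociclib alone overlapped untreated cells and the combination overlapped ATRA, for a departure of -0.24 ± 0.11 (SE, unadjusted p of 0.0462 in limma). ATF4 and ASNS, its transcription factor and the asparagine synthetase, departed by -0.17 ± 0.21 and -0.14 ± 0.12 (SE). Without ATRA replicate 1 the median of the list was -0.03, while between libraries of the same number the list mean departed by -0.07, -0.04 and -0.13. Cytosolic ribosomal proteins were below in 75 of 80 cases, with a median of only -0.06, and 0 had an unadjusted p under 0.05. Both drugs alone had medians 0.12 and 0.11 above untreated cells, but replicate 1 of each treated group carried much of that, with list means of 0.28 to 0.34 log2 units against 0.00 to 0.10 in replicates 2 and 3. Without ATRA replicate 1 their median departure was 0.04, a setting that leaves replicate 1 in the other groups. Between libraries of the same number the list mean departed by -0.26 in replicate 1 and by 0.02 and 0.08 in replicates 2 and 3. The negative direction of the mean thus came from replicate 1.

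Mitochondrial mRNAs were below in 12 of 13 cases (median -0.09), and without palbociclib replicate 2 the median was 0.00. Between libraries of the same number these mRNAs departed on average by -0.06, -0.29 and 0.07. The 5 most negative departures in RPKM were among them, with MT-CO3, MT-ATP6 and MT-CO1 between the ends of a range from -1009 ± 1519 (SE) for MT-ND4 to -714 ± 996 (SE) for MT-CO2, each smaller than its error. The 5 most positive were those of the mitochondrial tRNA gene MT-TC (71.7 ± 59.8), PCNA (64.0 ± 25.3), MT-ND3 (42.3 ± 363), the nuclear export receptor CSE1L (36.0 ± 17.2) and the histone chaperone ANP32E (32.0 ± 17.6, all SE). Myeloid and retinoid genes also leaned below, without any unadjusted p under 0.05. The lists of myeloid differentiation and signalling (19 of 23 below, median -0.09), retinoid response (5 of 6, -0.10) and primary granule proteins (9 of 9, -0.07) are of this kind. Within them CEBPE, a granulocytic transcription factor, had -0.19 ± 0.11 (SE) and MPO, the main granule peroxidase, -0.06 ± 0.12 (SE). Without palbociclib replicate 3 the granule protein median was 0.00. Between libraries of the same number the mean of that list departed by -0.21, -0.02 and -0.06.

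Further lists had medians nearer to 0 or few genes. MYC, which responds to ATRA early, read 168, 184 and 205 RPKM untreated, 72, 73 and 103 with ATRA, 171, 174 and 203 with palbociclib and 72, 70 and 107 with both. Libraries with and without ATRA did not overlap, libraries with and without palbociclib overlapped in either state, and the departure was 0.02 ± 0.25 (SE). Ribosome biogenesis genes had a median ATRA effect of -0.31 log2 units without palbociclib and -0.27 with it. Their median departure was 0.04, or -0.0466 without ATRA+palbociclib replicate 1 and 0.119 without ATRA replicate 1. Between libraries of the same number their list mean departed by 0.01, 0.05 and 0.06. Of these genes 44 of 61 lay above, as did 37 of 53 splicing factors. Immediate early and MAPK feedback genes had 4 of 5 below (median -0.10), and genes of NF-kB and inflammation 8 of 12 (median -0.07). Medians of proteasome subunits (-0.03), glycolysis genes (-0.02), translation factors (-0.01) and splicing factors (0.03) were within 0.03 of 0.

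The sign of the departure depended little on the scale for most genes and more for strongly induced ones. Where both drugs lower a gene, the expectation in RPKM lies below that in log2, so being above the second entails being above the first. The sizes differed, as for CDC25A, where 11.3 RPKM was expected in log2 and 5.0 in RPKM. Signs of the departure in log2 and RPKM were opposite in 56 of 4143 genes, and of those with an unadjusted p under 0.05, 77 were shared above (97.5% of the log2 set and 70.6% of the RPKM set) and 18 below (56.2% and 85.7%). Of 28 genes with more than a 2-fold higher mean under ATRA alone, 22 lay below additivity in log2 but 13 lay above it in RPKM, and 11 did both. Among all 4143 genes described, these counts were 2180, 1817 and 37. Choice by a high ATRA effect favours a departure below additivity, since the ATRA and untreated means enter both. CCL2, a monocyte chemokine, read 11, 11 and 13 RPKM untreated, 207, 232 and 221 with ATRA, 13, 13 and 15 with palbociclib and 226, 265 and 247 with both. The combination mean of 246 was above the 222 expected in RPKM and below the 257 expected in log2, with departures of 24.0 ± 12.5 RPKM and -0.07 ± 0.13 log2 units (SE). CEBPE was similar, at 34, 32 and 37 untreated, 116, 116 and 118 with ATRA, 48, 39 and 47 with palbociclib and 131, 131 and 135 with both, where all combination libraries exceeded all ATRA libraries. Its mean of 132 compared with 127 expected in RPKM and 151 in log2, and neither departure reached an unadjusted p of 0.05. PMAIP1, the BH3-only protein NOXA, split the other way, with 35.0 measured against 37.7 expected in RPKM and 33.8 in log2.

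**Figure D5:**
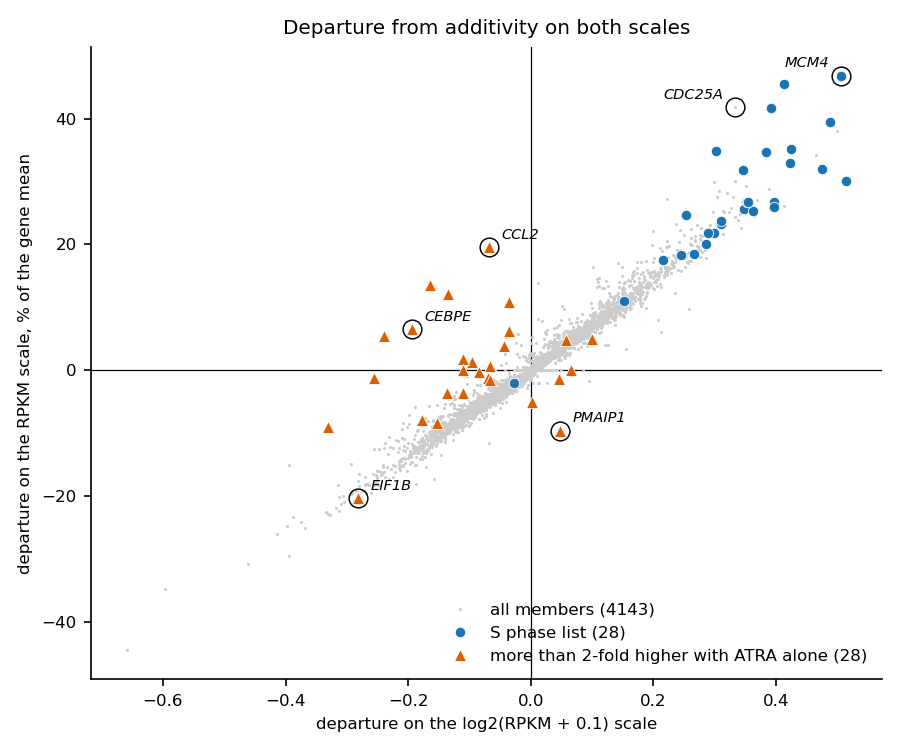
Departure on the log2 scale (x axis) against departure in RPKM as percent of the gene mean (y axis) for all 4143 genes in grey, with the S phase list as blue circles and the 28 genes over 2-fold higher with ATRA alone as orange triangles. Ringed genes are labelled. S phase genes lie up to the right on both axes, while 11 ATRA-induced genes lie left of 0 and above 0.

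The minimum of 10 RPKM shaped which genes were seen. The 299 genes whose lowest value was 10 had a median departure of 0.01 and a range from -0.40 to 0.40, and the 336 genes whose lowest value was 9 had -0.00 and from -0.43 to 0.58. Just outside was FBXO5, an inhibitor of the anaphase-promoting complex, at 0.58 ± 0.17 (SE), and just inside was PRIM1 at 0.40 ± 0.12 (SE). A minimum in every library removes genes that the drugs lowered most. E2F1, the best known RB partner, read 14, 12 and 12 RPKM untreated, 9, 8 and 8 with ATRA, 5, 5 and 4 with palbociclib and 4, 4 and 3 with both, and was left out by this minimum. Its departure was 0.25 ± 0.18 (SE) in log2 and 3.33 ± 0.848 (SE) in RPKM, where the expected 0.33 was close to no transcript at all. Of the 43 S phase genes in the table, 41 were tested and 40 of these lay above additivity, with a median of 0.40. Other genes the study names for these libraries lay under the minimum too, with departures of -0.15 ± 0.17 for the retinoid X receptor RXRA and -0.40 ± 0.27 (SE) for the demethylase KDM6B. HIST1H2BK, taken here for the HIST1H2K that the study writes, was also under it, at 4 to 8 RPKM. It departed by -0.46 ± 0.16 (SE), with an unadjusted p of 0.0150 in limma.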

How the data were processed

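Poly(A) RNA of HL-60 cells was sequenced in 12 libraries, 3 in each of 4 groups taken from the labels. Per the study's methods and the processing notes, the authors aligned reads to hg38 with HISAT2, counted them with htseq-count at default settings and analysed the counts with voom in Degust; versions and strand setting are not given in the sources used here. The deposited values are RPKM rounded to whole numbers by the authors, treated here as a score, so no count test was run and depth is unknown. Rounding alone gives a departure an SD of 0.0189 log2 units at the median gene.

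From these, log2(RPKM + 0.1) was fitted with limma 3.58.1 in R 4.3.3, with 1 mean per group and a mean-variance trend, over 7820 genes that reached 5 RPKM in 3 or more libraries, and p-values were adjusted by Benjamini-Hochberg over all of them. Two-sided tests of the departure used 12 libraries. The same fit on RPKM divided by the gene mean gave the RPKM scale. Both fits were tested on simulated data. Departures of 1 log2 unit were called there for 157 of 200 changed genes in log2 and 149 of 200 in RPKM. A fold on the log2 scale understates changes of low genes. Genes named were the 10 highest and 10 lowest by moderated t statistic, the 5 highest and 5 lowest in RPKM, members of the lists, genes the study names, and genes at the edge of the 10 RPKM minimum. The genes described, the lists and the tests were chosen with earlier results of these data known. Promoter windows came from RefSeq (GRCh38.p14), and gene types from GENCODE 44, which need not be the authors' annotation. Alternatives were other filters and pseudocounts, quantile normalization, a replicate block and leaving out each library.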

Additional observations from a re-analysis of the deposited data

Results flagged for a closer look

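UBR7, a ubiquitin ligase that recognises histones and a member of the S phase list, had ATRA effects of opposite direction without and with palbociclib. It read 22, 23 and 22 RPKM untreated and 19, 21 and 21 with ATRA, so every ATRA library was below every untreated one. It read 14, 14 and 14 with palbociclib and 15, 16 and 15 with both, so every library of the combination was above every one of palbociclib alone. The effects differed by 0.27 log2 units, the departure itself, with an unadjusted p of 0.00627 and an adjusted p of 1 in limma, and 1 RPKM is the smallest step the rounded values can show.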

How the results depend on the processing

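With genes that reached 1 RPKM in 3 or more libraries, limma called 59 genes above and 31 below additivity in log2 and 66 and 26 in RPKM, and with no filter 58 and 31, then 66 and 26. Of the 90 log2 calls at 1 RPKM, 76 were under the main filter and 82 had identical rounded values within every group. CHAF1A was the only gene described among the log2 calls. Genes described below additivity at an unadjusted p under 0.05 then numbered 50 and 50 in log2, and 36 and 35 in RPKM. A fit on the genes described alone called 2 in RPKM, CDC25A and MCM4. Quantile normalization gave 38 below in RPKM. With a replicate block, unadjusted counts were 202 above and 115 below in log2 and 251 and 92 in RPKM, with 26 and 1 adjusted calls in RPKM (of the genes described, 15 above additivity, MCM4, CDC25A and RFC3 among them, and TNFRSF1A below it) and 0 in log2. Same-numbered libraries deviated together by r of 0.438 to 0.908 among treated groups and 0.0453 to 0.367 with untreated ones, and each correlated best with its own number in 36 of 36 and 36 of 36 comparisons, a hint from the data, not the design. Lists including genes of at least 5 RPKM gave medians of 0.15 for DNA repair and 0.27 for the replication fork.

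Leaving out each library gave 0 adjusted log2 calls above and 0 to 1 below (1 without palbociclib replicate 3), and 0 to 3 above and 0 below in RPKM (3 without ATRA+palbociclib replicate 3). Unadjusted counts were 53 to 93 above and 21 to 45 below in log2 (21 without untreated replicate 1), and 78 to 127 and 16 to 38 in RPKM (38 without palbociclib replicate 3). List medians ranged from 0.27 to 0.42 for S phase, 0.26 to 0.39 for licensing, 0.0939 to 0.196 for the replication fork, 0.0577 to 0.178 for nucleotide synthesis, 0.12 to 0.20 for chromatin assembly, 0.0757 to 0.152 for DNA repair, 0.12 to 0.20 for E2F and G1 genes, 0.13 to 0.22 for PRC2, -0.142 to -0.0327 for amino acid stress, -0.136 to -0.0470 for retinoid response, -0.105 to -0.0364 for myeloid genes and -0.181 to 0.00105 for primary granule proteins. The cause of these shifts was not tested. The departure of each of the 20 genes named by t statistic kept its sign in all alternatives. Their choice by that statistic in the same libraries favours this, so it is no independent support.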
